A study of Homo sapiens with 17 samples.

Results

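CLK1, CLK2, CLK3, CLK4, OGT, MAT2A and MDM4 are protein-coding genes (PCGs) whose mRNAs are known to include polyadenylated isoforms that are held in the nucleus with an intron unspliced, called a detained intron. They were chosen by name for this property, and all 7 were found among the 18869 genes of the table. The study asked how RNAs bound by the nuclear poly(A) binding protein PABPN differ from those bound by its cytoplasmic counterpart PABPC, both in abundance and in contact with ribosomes. HEK293T cells, an established line from human embryonic kidney, carried a lentiviral construct encoding the C-to-U editing enzyme APOBEC1, either fused to the small ribosomal subunit protein RPS2 (RPS2-STAMP) or on its own (Control-STAMP). Both lines were induced with 50 ng/ml doxycycline for 24 h and crosslinked with formaldehyde, and rRNA-depleted RNA was sequenced without selection (Input) or after RNA immunoprecipitation (RIP) with PABPN or PABPC antibodies. There were 17 samples, comprising 3 of each fraction for RPS2-STAMP and, for Control-STAMP, 3 Input, 3 PABPN RIP and 2 PABPC RIP samples. The study describes the lysate as cytoplasmic, whereas the labels describe sonicated cell pellets and state no fractionation, so how much nuclear RNA the Input held was not tested.

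A detained intron is removed slowly, and the polyadenylated RNA that carries it waits in the nucleus until it is spliced or decays. Several genes with such introns use them for feedback. The CLK kinases phosphorylate the SR proteins that direct splicing, and removal of introns from their own transcripts changes with CLK activity. OGT is the transferase that adds O-GlcNAc to proteins, and MAT2A is the enzyme that makes S-adenosylmethionine. Each has an intron whose removal responds to the level of the product. MDM4 is a relative of the ubiquitin ligase MDM2, and its output is set in large part by splicing.

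The table held 1 authors' average TPM and 1 authors' normalized EPKM per gene and fraction. TPM counts exonic and intronic reads per length, so RNA with a detained intron contributes to it. Exonic and intronic reads are summed in the deposited value, which therefore does not show how much of an RNA still held an intron. EPKM is the rate of C-to-U edits in RPS2-STAMP cells, scaled by length and library size, after subtraction of editing in Control-STAMP cells. Since single replicates are not given, no value below has an error, no difference between fractions has a replicate check, and no test was run. The study's methods summarise the reads of all STAMP libraries together, and the number of reads and edits behind each value of a fraction is unknown. Genes were therefore read against the 9607 PCGs that reached a minimum TPM of 5 in both RIPs, by percentile and by the share past the same fold, and against all 13076 PCGs with a TPM. Of the 7 genes, 5 met this minimum, and CLK3 and CLK4 did not because of a low TPM in the PABPC RIP. Counts below are over all 7 genes.

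All 7 transcripts were more abundant in the PABPN RIP than in the PABPC RIP, as were 57.6% of the PCGs that met the minimum and 64.6% of all PCGs with a TPM. The TPM was at least 2-fold higher in the PABPN RIP for 6 of the 7 genes, on the log2(TPM + 0.5) scale, where 21.5% of the PCGs that met the minimum and 27.2% of all PCGs did so. CLK3, the exception, lay just under the line at a log2 ratio of 0.998 and was past it with no pseudocount. The median log2 ratio was 1.95 over the 7 genes and 0.19 over the 9607 PCGs. The genes spread from CLK3 at the bottom to CLK4 at the top, with a log2 ratio of 2.72.

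**Figure D1:**
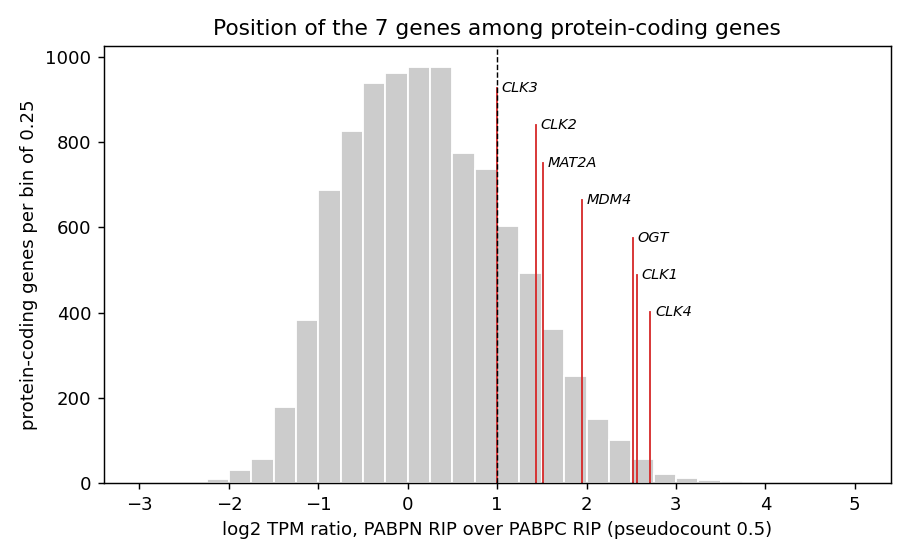
Grey bars count the 9607 PCGs that met the minimum TPM of 5 in both RIPs by log2 TPM ratio, PABPN RIP over PABPC RIP, and red lines mark the 7 genes (heights of the lines have no meaning), with a dashed line at 2-fold. CLK4, CLK1 and OGT lie in the right tail, while CLK3 lies at the 2-fold line.

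The PABPN RIP was at least 2-fold above the Input for all 7 genes, but 56.3% of the PCGs that met the minimum and 58.1% of all PCGs were past that line too. The median PCG was 1.10 higher on the log2 scale in the PABPN RIP and 0.95 higher in the PABPC RIP than in the Input, so a ratio to the Input has to be read relative to these shifts. With the ratios centred on that median, 4 of the 7 genes (CLK1, CLK4, OGT and MDM4) had a PABPN RIP at least 2-fold above the Input, where 7.97% of the PCGs were. In the PABPC RIP 0 of the 7 genes were at least 2-fold above the Input, where 46.0% of the PCGs that met the minimum and 35.8% of all PCGs were. That share was 27.3% with TPM rescaled to the same total in each fraction and 0.0625% after centring, where a count of 0 does not set the 7 genes apart. Their log2 ratios of the PABPC RIP over the Input ran from -0.53 to 0.46, at percentiles from 0.791 to 17.8 of the PCGs that met the minimum and from 0.964 to 28.2 of all PCGs. The 7 genes thus ranked above the median PCG for the PABPN RIP and under it for the PABPC RIP, although for the PABPN RIP over the Input CLK3 was only at the 56.4th percentile.

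**Figure D2:**
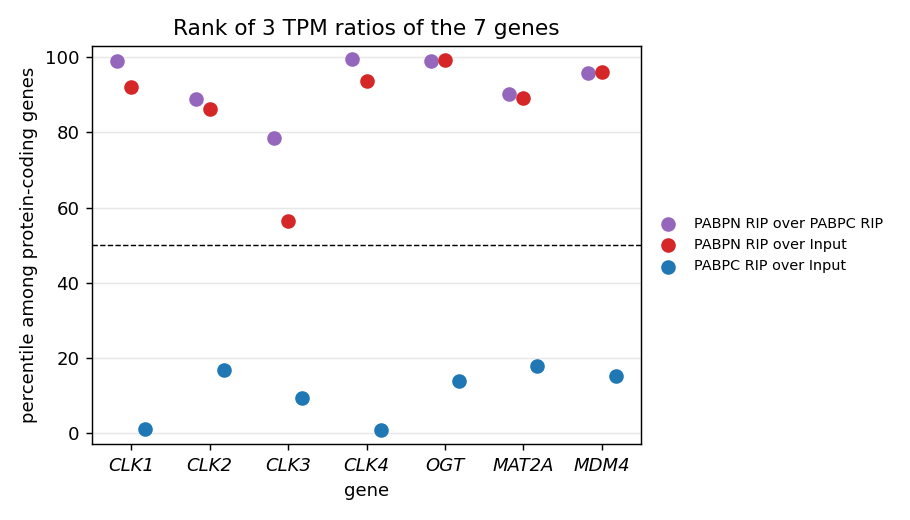
Each point is the percentile of 1 gene among the 9607 PCGs for 1 TPM ratio, on a linear axis with a dashed line at the median. For PABPC RIP over Input all 7 genes lie below the 18th percentile, and for PABPN RIP over PABPC RIP they lie between the 78.5th and the 99.5th.

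The CLK kinases are dual-specificity kinases, and each of the 4 genes has 13 exons in its reference transcript (GENCODE release 44, hg38). CLK1 lies at chr2:200853009-200864691 on the reverse strand, CLK2 at chr1:155262868-155278491 on the reverse strand, CLK3 at chr15:74598500-74645414 on the forward strand and CLK4 at chr5:178602664-178630615 on the reverse strand. Exon 4 is the alternative exon of this family, and its skipping shifts the reading frame, because its length was not a multiple of 3 in any of the 4 genes. In CLK1, CLK3 and CLK4 both introns beside it were covered by annotated retained-intron transcripts. In CLK2 the intron after it was covered by 1 transcript of another class. Exon 4 is given for each gene in lower case, with the last 6 bases of intron 3 and the first 6 bases of intron 4 in capitals, 5′ to 3′ on the strand of the gene.
CLK1, chr2:200860125-200860215: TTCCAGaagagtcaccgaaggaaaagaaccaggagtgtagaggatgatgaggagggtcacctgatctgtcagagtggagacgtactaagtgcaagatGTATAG
CLK4, chr5:178617344-178617434: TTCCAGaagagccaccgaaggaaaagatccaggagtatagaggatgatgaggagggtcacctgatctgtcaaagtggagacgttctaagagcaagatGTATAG
CLK2, chr1:155268708-155268795: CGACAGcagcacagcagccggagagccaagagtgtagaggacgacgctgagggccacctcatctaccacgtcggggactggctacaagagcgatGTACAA
CLK3, chr15:74622120-74622216: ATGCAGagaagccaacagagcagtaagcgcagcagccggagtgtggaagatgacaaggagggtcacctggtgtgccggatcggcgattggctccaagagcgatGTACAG
The exon had 91 bases in CLK1 and CLK4, 88 in CLK2 and 97 in CLK3. CLK1 and CLK4 shared 85 of 91 aligned bases (93.4%) and the same 6 intronic bases on each side. The other 5 pairs were between 62.6% and 66.3% identical. Intron 4 is short in all 4 genes, at 378 bases in CLK1, 348 in CLK2, 277 in CLK3 and 395 in CLK4.

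CLK1 and CLK4 had similar TPM ratios between fractions, with CLK1 the more abundant in each fraction. The TPM of CLK1 was 9.97 in the Input, 7.12 in the PABPC RIP and 44.7 in the PABPN RIP. For CLK4 the TPM was 4.57 in the Input, 3.00 in the PABPC RIP and 22.5 in the PABPN RIP. These 2 genes were the only ones of the 7 with a lower TPM in the PABPC RIP than in the Input, although all 7 were lower relative to the median PCG. The PABPN RIP exceeded the PABPC RIP 6.27-fold for CLK1 and 7.50-fold for CLK4, at the 99.1st and 99.5th percentiles. A TPM lower in the PABPC RIP than in the Input was found for 445 of the 9607 PCGs that met the minimum (4.63%). Of these, 97 (1.01% of the 9607) had a PABPN RIP at least 4-fold above the Input as well, a pattern chosen after the values of CLK1 and CLK4 were seen. Over all 13076 PCGs the same pattern was found for 376 (2.88%). Only exon 4 was aligned between CLK1 and CLK4, so whether reads of these genes can be told apart was not tested, and how reads with several matches were counted is not given in the sources used here.

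CLK2 was the most abundant kinase of the family, with a TPM of 25.1 in the Input, 34.1 in the PABPC RIP and 93.4 in the PABPN RIP. The PABPN RIP was 2.74-fold above the PABPC RIP, at the 88.9th percentile. CLK3 was the least abundant in the Input and in the PABPN RIP, with a TPM of 3.36 in the Input, 3.99 in the PABPC RIP and 8.47 in the PABPN RIP. Its 2.12-fold ratio between the RIPs was at the 78.5th percentile of the PCGs that met the minimum and at the 72.7th percentile of all PCGs. Other annotated genes, among them EDC3 on the opposite strand, overlapped 55.9% of the exonic length of CLK3, and the authors removed overlapping regions before counting. The part of this removal in the low TPM of CLK3 was not tested.

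**Figure D3:**
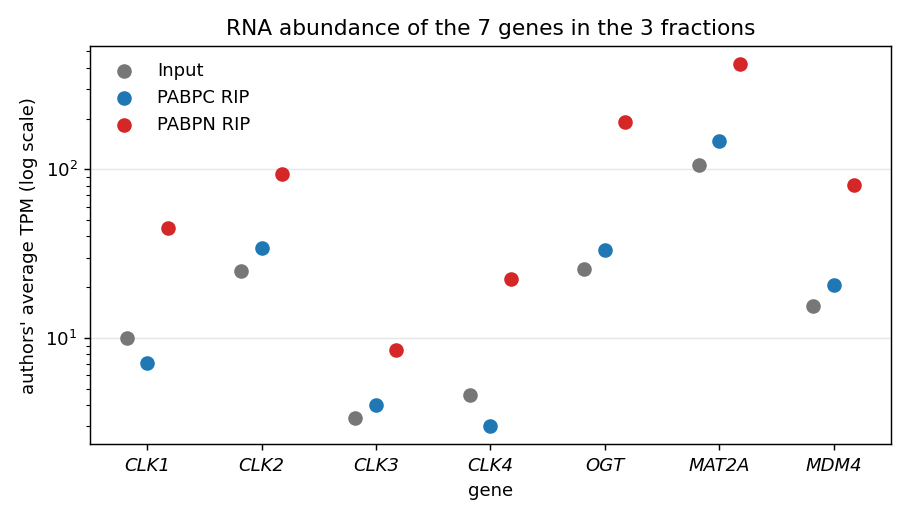
Points show the authors' average TPM of each gene in the Input (grey), the PABPC RIP (blue) and the PABPN RIP (red) on a log axis, with no error because each point is an average of samples. The red point is the highest for every gene, and the blue point lies under the grey one only for CLK1 and CLK4, although relative to the median PCG it does so for all 7.

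OGT, at chrX:71533087-71575892 on the forward strand, is the only enzyme that attaches O-GlcNAc to nuclear and cytoplasmic proteins. Its detained intron is intron 4, which has 3271 bases at chrX:71544636-71547906 and was covered by 1 annotated retained-intron transcript and 1 transcript of another class. The splice sites are shown with 8 exonic and 20 intronic bases each, where capitals mark the 6 intronic bases at the junction.
OGT intron 4, 5′ splice site: aagccaagGTAGGTgtttgatagaacac
OGT intron 4, 3′ splice site: tttcattaacccctCCTAAGgcatgtta
The TPM of OGT was 25.7 in the Input, 33.1 in the PABPC RIP and 191.7 in the PABPN RIP. The PABPN RIP was 5.80-fold above the PABPC RIP, at the 99.0th percentile, and 7.47-fold above the Input, at the 99.2nd percentile, which was the highest ratio to the Input among the 7 genes. In the PABPC RIP it was 1.29-fold above the Input, which was only at the 13.8th percentile and so under the median PCG. OGT thus moved from the 66.3rd percentile of TPM in the Input to the 94.4th in the PABPN RIP.

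MAT2A, at chr2:85539168-85545281 on the forward strand, encodes the catalytic subunit of the methionine adenosyltransferase found outside the liver. When S-adenosylmethionine is scarce, the methyltransferase METTL16 stays bound to hairpins in the MAT2A 3′ UTR and promotes removal of the last intron. That intron, intron 8, has 635 bases at chr2:85543035-85543669 and was covered by 0 annotated retained-intron transcripts, while introns 2, 3 and 6 were each covered by 1. Its splice sites are shown as for OGT.
MAT2A intron 8, 5′ splice site: attgtcagGTAAAGatggtaaagcctgt
MAT2A intron 8, 3′ splice site: tacggacttgtataTTCCAGggatctgg
The motif TACAGANAA, searched on the sense strand of the mRNA because METTL16 binds RNA, occurred 6 times in the 1509 bases of the MAT2A 3′ UTR. The sites follow in order from the stop codon, with the motif in capitals and 6 bases on each side.
MAT2A motif at base 40: gtaggcTACAGAGAAgccttc
MAT2A motif at base 827: atgtcaTACAGAGAAgtcaca
MAT2A motif at base 1012: tgtagcTACAGAGAAaccagc
MAT2A motif at base 1127: cgtaagTACAGAGAAgccatc
MAT2A motif at base 1242: gtgtccTACAGAAAAaccttg
MAT2A motif at base 1350: gtgtggTACAGAGAAgccagc
Of 7601 other 3′ UTRs at least as long, 466 (6.13%) held the motif at least 1 time in a stretch of the same length from the stop codon, and 0 held it 6 or more times. The motif was chosen as the METTL16 motif of MAT2A, so its high number there is a description only. The 3′ UTRs of the other 6 genes held 0 matches.

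MAT2A was the most abundant of the 7 transcripts in every fraction, with a TPM of 106.5 in the Input, 146.8 in the PABPC RIP and 421.2 in the PABPN RIP. The PABPN RIP was 2.87-fold above the PABPC RIP, at the 90.2nd percentile, and 3.96-fold above the Input, at the 89.1st. Abundant transcripts seldom had such a ratio. Among the quartile of PCGs with the highest Input TPM, to which MAT2A belongs, 5.54% had a PABPN RIP at least 2-fold above the PABPC RIP, and their median log2 ratio was -0.56. CLK2 and OGT lie in the next quartile, where 16.7% were past this line, CLK1 and MDM4 in the quartile under it, where 29.4% were, and the Input TPM of CLK3 and CLK4 falls within the lowest quartile, where 34.4% were.

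MDM4, at chr1:204516379-204558120 on the forward strand, encodes a protein that pairs with MDM2 through its RING domain. The TPM of MDM4 was 15.5 in the Input, 20.5 in the PABPC RIP and 81.0 in the PABPN RIP. Its PABPN RIP was 3.94-fold above the PABPC RIP, at the 95.8th percentile, and 5.22-fold above the Input, at the 96.0th. None of the 16 annotated MDM4 transcripts was of the retained-intron class, as was also the case for the 7 transcripts of CLK2.

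Annotated retained-intron transcripts are related to the property for which the genes were chosen, so their number is a description only. CLK1 had 8 of them, CLK3 8, CLK4 7, OGT 6 and MAT2A 3, so that 5 of the 7 genes had at least 3, as did 31.8% of the PCGs that met the minimum. The TPM ratio between the RIPs was higher where more such transcripts were annotated. At least 2-fold more RNA in the PABPN RIP than in the PABPC RIP was found for 18.1% of PCGs with 0 retained-intron transcripts, for 20.3% with 1 to 2, for 23.9% with 3 to 5 and for 31.6% with 6 or more. CLK2 and MDM4, with 0 annotated, lay at log2 ratios of 1.44 and 1.95, well above the median of 0.11 in their class. Intronic length, counted as bases of a gene outside any annotated exon, moved with the ratio as well, from 14.4% past 2-fold in the quartile of PCGs with the shortest introns in total to 31.6% in the quartile with the longest. The part of intronic length in the ratios of the 7 genes was not tested. By this measure MAT2A (1629 bases) and CLK1 (6566) fell in the shortest quartile, CLK2 (11966) and CLK4 (20030) in the second, and CLK3 (27218), MDM4 (30734) and OGT (33003) in the third.

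Editing by RPS2-STAMP reports contact with ribosomes. All 4 CLK transcripts had a higher EPKM in the PABPC RIP than in the PABPN RIP, while OGT, MAT2A and MDM4 had a higher EPKM in the PABPN RIP, a direction that flipped for OGT and MAT2A when EPKM was divided by TPM. The count of 4 in 7 is close to the shares of 56.4% among the PCGs that met the minimum and 50.5% among all PCGs, so it sets the list as a whole apart in neither direction. In the Input 4 of the 7 genes were above 0, in the PABPN RIP 6 and in the PABPC RIP 7, where 78.1%, 72.9% and 82.6% of the PCGs were. The median EPKM of the 7 genes was 8.44e-05 in the Input, 0.0205 in the PABPC RIP and 0.0127 in the PABPN RIP, compared with 0.0273, 0.0501 and 0.0334 over the PCGs that met the minimum and 0.0132, 0.0288 and 0.0204 over all PCGs. The order of the RIPs depended on the summary, since the mean over the 7 genes was 0.0327 in the PABPC RIP and 0.0564 in the PABPN RIP, where the mean over the PCGs was 0.0719 and 0.0520, and the median over the 5 genes that met the minimum was 0.0439 and 0.0457. Over the genes above 0 the median was 0.0377 in the Input, 0.0205 in the PABPC RIP and 0.0292 in the PABPN RIP, beside 0.0420, 0.0637 and 0.0546 over the PCGs above 0.

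CLK1 had an EPKM of 0.0205 in the PABPC RIP and 0 as the listed value for the Input and the PABPN RIP, although its TPM was highest in the PABPN RIP. For CLK2 the EPKM was 0.0531 in the PABPC RIP and 0.0127 in the PABPN RIP, a 4.18-fold ratio, with the Input listed at 0. CLK3 was likewise listed at 0 in the Input, with 0.0173 in the PABPC RIP and 0.00874 in the PABPN RIP. The EPKM of CLK4 was 8.44e-05 in the Input, 0.00800 in the PABPC RIP and 0.00536 in the PABPN RIP. The highest of these values, that of CLK2 in the PABPC RIP, was at the 51.8th percentile of the PCGs that met the minimum. Among the kinases only CLK1 and CLK2 differed between the RIPs by 0.01 EPKM or more. Whether a value listed at 0 reflects absent editing or a difference from Control-STAMP that fell below 0 is not given in the sources used here.

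OGT had an EPKM of 0.0207 in the Input, 0.0775 in the PABPC RIP and 0.203 in the PABPN RIP, the last at the 97.1st percentile. MAT2A had 0.0547 in the Input, 0.0439 in the PABPC RIP and 0.119 in the PABPN RIP. MDM4 differed from both in having its highest EPKM in the Input, at 0.117, compared with 0.00856 in the PABPC RIP and 0.0457 in the PABPN RIP. The PABPN RIP was above the PABPC RIP 2.62-fold for OGT, 2.72-fold for MAT2A and 5.34-fold for MDM4.

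**Figure D4:**
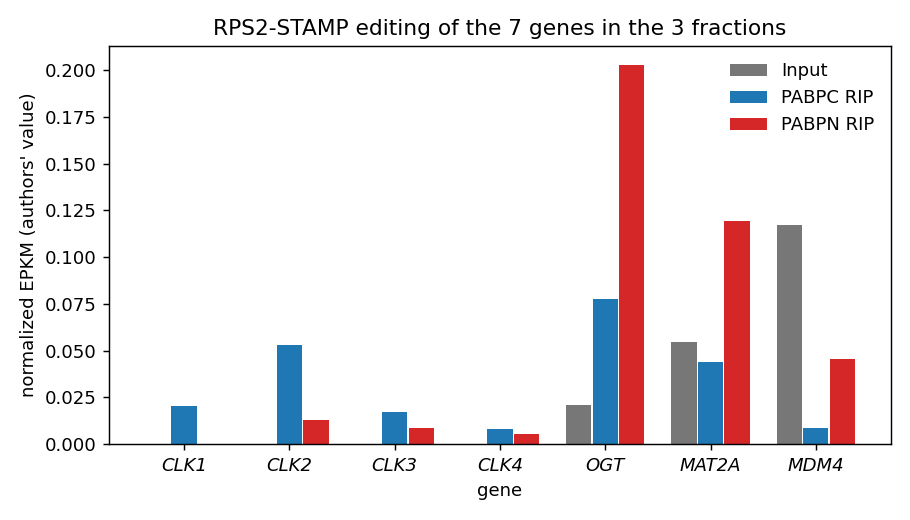
Bars show the authors' normalized EPKM of each gene in the Input (grey), the PABPC RIP (blue) and the PABPN RIP (red), with no error because there is 1 value per fraction, and a missing bar is a value at or near 0. Blue exceeds red for the 4 CLK kinases, and red exceeds blue for OGT, MAT2A and MDM4, which for OGT and MAT2A flips after division by TPM.

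EPKM as described is scaled by library size and length but not by the amount of RNA of the gene, and TPM was higher in the PABPN RIP for all 7 genes. EPKM was therefore also divided by the TPM of the same fraction, an alternative chosen after seeing the data. On this scale 6 of the 7 genes were higher in the PABPC RIP, where 59.5% of the PCGs were, and the direction flipped for OGT and MAT2A. Because TPM was higher in the PABPN RIP for all 7 genes, the division by itself moves each of them towards the PABPC RIP. The count of 6 therefore partly restates their TPM ratios and does not set the list apart. OGT had 2.34 EPKM per 1000 TPM in the PABPC RIP and 1.06 in the PABPN RIP. The values of MAT2A were nearly equal, at 0.299 and 0.284 EPKM per 1000 TPM, and MDM4 kept its direction, at 0.417 in the PABPC RIP and 0.565 in the PABPN RIP. For the kinases the EPKM per 1000 TPM was 2.89 in the PABPC RIP and listed at 0 in the PABPN RIP for CLK1, 1.55 and 0.136 for CLK2, 4.34 and 1.03 for CLK3, and 2.67 and 0.238 for CLK4. The PABPC RIP values of CLK3 and CLK4 divide a small EPKM by a TPM of 3.99 and 3.00, under the minimum of 5.

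Other kinases of SR proteins and of the related DYRK and HIPK families covered a wider range than the CLK kinases. Of 11 such genes, 10 were more abundant in the PABPN RIP than in the PABPC RIP and 5 at least 2-fold, compared with 57.6% and 21.5% of the PCGs that met the minimum, with a median log2 ratio of 0.92. PRPF4B, a kinase associated with the spliceosome, was the highest at 2.09, at the 97.0th percentile, and its TPM in the PABPC RIP (13.1) was below that in the Input (13.6). The SR protein kinases of the cytoplasm and nucleus, SRPK1 and SRPK2, lay at 0.06 and 0.47, below every CLK kinase. DYRK4 was the only gene of this list that was lower in the PABPN RIP, at -0.43.

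In the O-GlcNAc and hexosamine pathway, 4 of 6 genes were more abundant in the PABPN RIP and 2 at least 2-fold, close to the same shares of 57.6% and 21.5%. OGA, the enzyme that removes the O-GlcNAc that OGT adds, had a TPM of 25.2 in the Input, 25.8 in the PABPC RIP and 108.2 in the PABPN RIP. Its log2 ratio between the RIPs was 2.05, and its EPKM was 0.149 in the PABPN RIP and listed at 0 in the PABPC RIP. GFPT2 was the other gene past 2-fold, at 1.53. GNPNAT1 and UAP1, enzymes of UDP-GlcNAc synthesis, were lower in the PABPN RIP, at -0.32 and -0.41.

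Around MAT2A, 5 of 7 genes of the methionine cycle were more abundant in the PABPN RIP and 1 at least 2-fold, MTR, the methionine synthase, at a log2 ratio of 1.60, beside shares of 57.6% and 21.5% of the PCGs. METTL16, which binds MAT2A RNA, lay at 0.96. MAT2B, the regulatory subunit that pairs with the MAT2A product, went the other way, with a TPM of 66.0 in the PABPC RIP and 34.1 in the PABPN RIP and a log2 ratio of -0.94. Of 4 genes listed around MDM4 (MDM2, PPM1D, USP7 and CDKN1A), 3 were higher in the PABPN RIP and 0 at least 2-fold, with a median log2 ratio of 0.27 beside 0.19 over the PCGs. MDM2, the closest relative of MDM4, had a ratio of 0.51, and CDKN1A, an inhibitor of cyclin-dependent kinases, was the lowest at -0.50.

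Transcripts often seen with retained introns were the list most like the 7 genes. Of 10, 9 were more abundant in the PABPN RIP and 8 at least 2-fold, where 57.6% and 21.5% of the PCGs were, with a median log2 ratio of 2.22. CCNL2 and CCNL1, cyclins linked to splicing, lay at 3.67 and 3.07, above CLK4. TRA2A, a splicing regulator, was the only one lower in the PABPN RIP, at -0.28. As references, the nuclear RNAs MALAT1 and NEAT1 had log2 ratios of 4.27 and 3.91, and the mRNAs of ACTB, GAPDH and EEF1A1 had -1.25, -1.41 and -1.60, so the 7 genes lay between these ends. Of the HEK293T markers, LIN28B, NEFM and ZIC2 had a TPM of at least 5 in every fraction, while PAX2 was lower, at 0.797 in the Input. All 4 markers were higher in the PABPN RIP than in the PABPC RIP and 0 at least 2-fold. PTPRC, ALB and HBB, which the line should lack, were not analysed here.

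**Figure D5:**
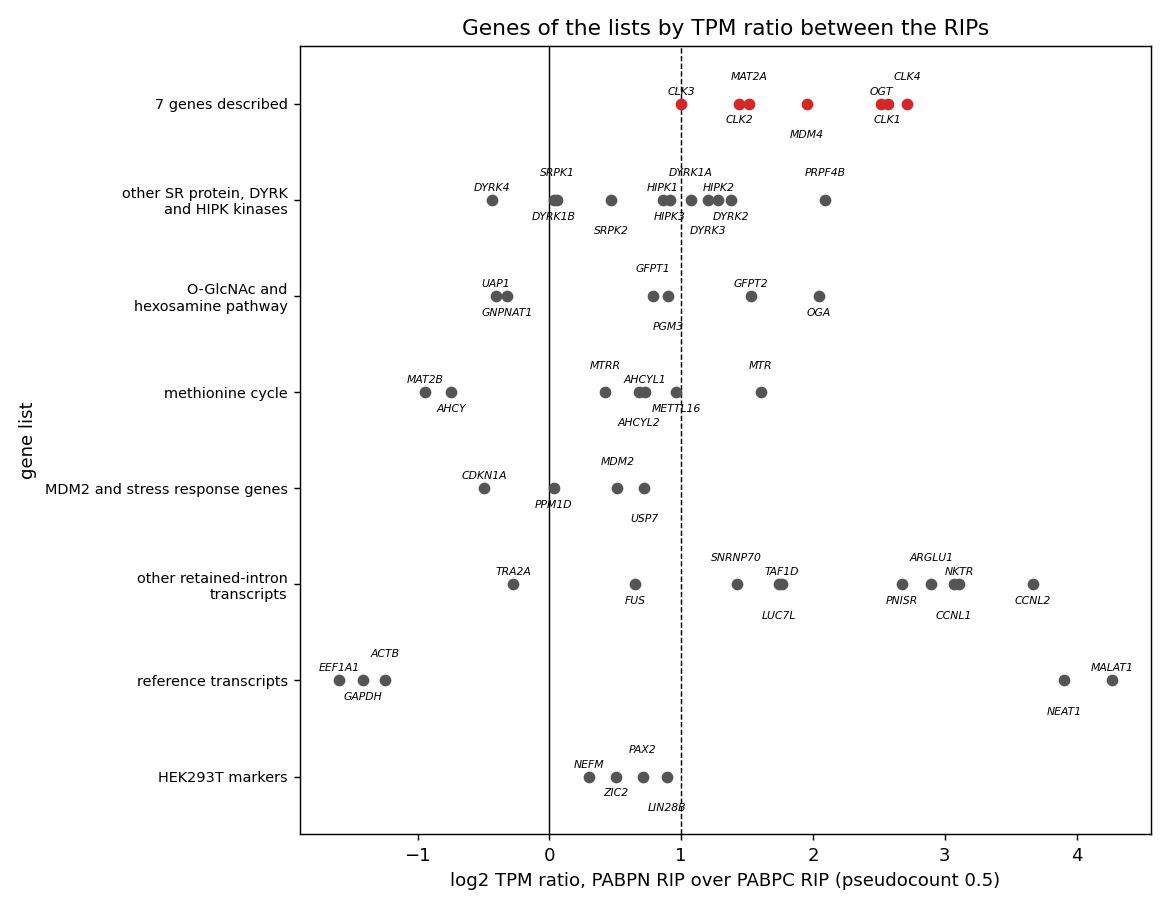
Each point is 1 gene, placed by log2 TPM ratio of the PABPN RIP over the PABPC RIP, with a solid line at equal TPM and a dashed line at 2-fold, and each row is 1 gene list. The 7 genes (red) lie from 0.998 to 2.72, the other retained-intron transcripts reach 3.67 and the nuclear reference RNAs reach 4.27.

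Over the 6 values of TPM and EPKM, the PCG nearest to each of the 7 genes was a different one. The search was limited to PCGs that met the minimum TPM of 5 in both RIPs, which CLK3 and CLK4 did not. FBXO30 was nearest to CLK1 (distance 0.302, where the median PCG lay at 2.78), with a TPM of 8.66 in the Input, 8.22 in the PABPC RIP and 36.6 in the PABPN RIP and an EPKM listed at 0 in the PABPN RIP. MAP3K21 was nearest to CLK2 (0.391), ZNF180 to CLK3 (0.369) and KDM3A to CLK4 (0.572). RBM26 was nearest to MDM4 (0.571), with a TPM of 22.2 in the Input, 18.8 in the PABPC RIP and 109.6 in the PABPN RIP. OGT and MAT2A had the most distant neighbours, SLIT2 (0.664) and DFFA (0.766).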

How the data were processed

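RNA of 17 samples was sequenced by the authors from stranded rRNA-depleted libraries. Per the submitters' processing notes, STAR and featureCounts 2.0.2 were used with hg38. Deposited EPKM values are a signal from which the authors subtracted control editing, 1 per gene and fraction. The deposited TPM averages are handled as a score, since the table repeats each on 3 rows. The authors summed exonic and intronic TPM over a custom annotation without overlapping regions. Which samples entered each average is not given in the sources used here, and read numbers are given for all STAMP libraries together, not by fraction. Computed here were log2 ratios with a pseudocount of 0.5, percentiles (share of PCGs below the value), shares at least 2-fold apart, and, for nearest genes, Euclidean distances over log2(TPM + 0.5) and log2(EPKM + 0.01), each divided by its SD. Members and lists were chosen with earlier results of these data known. Named were the 7 genes, the genes of the lists and the nearest genes. Of the genes on the lists, 2 are not reported here and were left out of the counts. Annotation and sequences came from GENCODE release 44 and hg38, where 18806 of 18869 genes were found. Alternatives changed the pseudocount, scaling, centring, gene set and fold. Python 3.11.15, NumPy 2.4.6, pandas 2.3.3, Biopython 1.88 and matplotlib 3.10.9 were used.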

Additional observations from a re-analysis of the deposited data

How the results depend on the processing

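The count of genes at least 2-fold higher in the PABPN RIP than in the PABPC RIP was 6 or 7 under each alternative tried. The alternatives were no pseudocount, a pseudocount of 1, TPM rescaled to 1000000, centring, all PCGs and a fold of 1.5. The share of PCGs beside this count ran from 16.6% after centring to 34.5% at a fold of 1.5. For the PABPC RIP over the Input the count was 0 under each alternative. The share of PCGs beside it fell from 46.0% to 27.3% after rescaling and 0.0625% after centring, so that 0 is then no contrast. The median log2 ratio between the RIPs lay between 1.76 and 1.98. The count for the PABPN RIP over the Input was 7, beside 45.4% to 80.2% of the PCGs, except after centring on the PCG median. There it was 4, beside 7.97% of the PCGs, since centring subtracts 1.10 from every ratio. The count of genes with higher EPKM in the PABPC RIP was 4. It was 2 with a difference of at least 0.01 EPKM (50.6% of the PCGs), 2 at 2-fold on log2(EPKM + 0.01) (36.3%) and 0 at 2-fold on log2(EPKM + 0.1) (9.0%), because these add a minimum size. After division by TPM it was 6 (59.5%), a count that the higher TPM of all 7 genes in the PABPN RIP favours by itself. The mean EPKM over the genes was 0.0276 in the Input, 0.0327 in the PABPC RIP and 0.0564 in the PABPN RIP, and the median over genes above 0 was 0.0377, 0.0205 and 0.0292 in the same order, so both put the PABPN RIP above the PABPC RIP, opposite to the medians over all 7 genes. No paired analysis was possible because the deposited values combine the replicates, and for the same reason leaving out each replicate was not run.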
